A study of Mus musculus with 8 samples.

Results

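The Hox genes of mouse rib chondrocytes were examined on 8 one-colour arrays, by every probe set that the platform annotation assigns to a listed Hox gene. Of 38 Hox genes listed, 35 were represented, among 19324 genes named on the array, by 51 of the 45037 probe sets considered, and Hoxa6, Hoxc11 and Hoxc12 had no probe set named for them. A shared assignment applied to 3 of the probe sets, 2 to Hoxd3 with Hoxd4 and 1 to Hoxb7 with Hoxb8. The members were ordered by cluster and paralogue number. They were listed by gene symbol and not by measured value, though earlier results of these data were known. The arrays held RNA of primary chondrocytes, the cells that make and maintain cartilage, freed from rib cages of FVB embryos at E18.5. Collagenase at 0.25% was used for all 8 samples. In each of 4 litters the wild-type embryos formed 1 control sample and the embryos labelled Hoxd4 transgenic formed the other, so each group had 4 arrays and each litter 1 of each kind. The sources used here do not give the number of embryos per sample, the promoter that drives the transgene or the founder line.

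Hox genes encode homeodomain transcription factors and lie in 4 clusters, Hoxa to Hoxd. Within a cluster they are numbered by paralogue group, and groups of low number act from the hindbrain and neck backwards, those of high number in the lumbar, sacral and tail regions and in the limbs. The combination active in a vertebral segment, often called a Hox code, sets the shape of its vertebra and whether it bears ribs. In mice, group 4 genes such as Hoxd4 pattern neck vertebrae, genes of groups 5 to 9 pattern the rib-bearing thorax, and group 10 genes suppress ribs in the lumbar region. The comparison asks whether the other Hox genes of these cells differed between samples labelled Hoxd4 transgenic and controls.

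Promoter sequence was held by the RefSeq table of build GRCm38.p6 for 22 of the 38 genes, with 24 start sites and 300 bases each, from 250 before to 50 after the start. Shown here are those of the gene named in the transgenic label, of the Hoxa gene with the brightest probe set, of the gene with the lowest p in the genotype comparison, and of a posterior gene whose probe sets stayed dim. They lie at chr2:74721728-74722027 on the plus strand (Hoxd4), chr6:52204538-52204837 on the minus strand (Hoxa5), chr6:52218524-52218823 on the minus strand (Hoxa7) and chr2:74667975-74668274 on the plus strand (Hoxd13). Letters run 5′ to 3′, and capitals mark CG dinucleotides.
Hoxd4: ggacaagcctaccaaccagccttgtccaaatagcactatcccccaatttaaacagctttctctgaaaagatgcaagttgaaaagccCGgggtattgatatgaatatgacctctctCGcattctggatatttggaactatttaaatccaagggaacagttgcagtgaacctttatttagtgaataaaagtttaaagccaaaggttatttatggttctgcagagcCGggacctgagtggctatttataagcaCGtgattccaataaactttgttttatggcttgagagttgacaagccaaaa
Hoxa5: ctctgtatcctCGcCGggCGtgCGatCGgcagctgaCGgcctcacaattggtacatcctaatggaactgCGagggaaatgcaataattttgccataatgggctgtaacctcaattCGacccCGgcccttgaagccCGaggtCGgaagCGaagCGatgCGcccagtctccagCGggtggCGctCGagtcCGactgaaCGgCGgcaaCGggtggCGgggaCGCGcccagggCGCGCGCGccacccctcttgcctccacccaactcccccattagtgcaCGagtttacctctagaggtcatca
Hoxa7: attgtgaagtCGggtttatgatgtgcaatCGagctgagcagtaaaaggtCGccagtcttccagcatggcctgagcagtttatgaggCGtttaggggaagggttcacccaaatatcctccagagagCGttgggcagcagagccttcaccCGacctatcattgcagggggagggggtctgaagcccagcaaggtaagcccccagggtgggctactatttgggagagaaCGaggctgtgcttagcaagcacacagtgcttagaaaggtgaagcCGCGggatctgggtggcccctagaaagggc
Hoxd13: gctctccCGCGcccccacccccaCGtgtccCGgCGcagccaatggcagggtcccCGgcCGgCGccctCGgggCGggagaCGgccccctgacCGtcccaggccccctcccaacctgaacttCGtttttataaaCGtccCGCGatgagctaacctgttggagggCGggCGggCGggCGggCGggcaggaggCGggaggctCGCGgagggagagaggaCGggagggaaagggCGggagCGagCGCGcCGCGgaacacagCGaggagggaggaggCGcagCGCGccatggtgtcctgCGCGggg
The Hoxd4 and Hoxa7 windows held 4 and 9 CG dinucleotides, and the Hoxa5 and Hoxd13 windows 29 and 37. Over the 24 Hox windows the count ran from 4 to 45 with a median of 14.5, against a median of 7 over all 32851 windows of the table. Windows of genes with a probe set bright enough to test had a median of 9 (8 windows) and those of genes with none a median of 20 (15 windows), and 1 window belonged to a gene with no probe set. TGATNNAT, a core of the sites that Hox and Pbx proteins bind together, was searched on both strands with overlaps counted and occurred in 4 of the 24 windows (16.7%), against 8.85% of all windows. TAATTA, a homeodomain core that reads the same on both strands, occurred in 2 (8.33%), against 5.29% of all. None of the 4 windows printed held either, and these matches only describe the letters.

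Cartilage genes were bright on every array. All 13 cartilage markers passed the brightness filter, among them Col2a1 (mean signal 42270 in controls and 43440 in arrays labelled transgenic), and their summed signal lay between 348500 and 383500 in controls and between 366100 and 394900 in the other group. All 8 skeletal muscle and all 6 perichondrium and fibroblast markers also passed, as did all 7 endothelial ones, so the digests held more than cartilage. Other lists passed in part: 3 of 7 macrophage, 2 of 5 limb mesenchyme and joint, 2 of 5 lung and gut epithelium and 2 of 4 epidermis markers. Which cells gave the Hox signals was not tested. Of 8 markers of neurons and glia on the array only Sox10 passed, and the neuronal markers Tubb3, Elavl3, Snap25 and Isl1 and the spinal cord marker Olig2 were too dim. In such bulk RNA, fewer cells of a type and less RNA per cell cannot be told apart. Median signals per array lay between 100.5 and 115.1, and rank correlations between arrays between 0.932 and 0.942. Sex-linked genes differed between the genotype labels at unadjusted p only: Eif2s3y, Uty and Kdm5d of the Y chromosome were higher in the transgenic group by 0.92, 0.86 and 0.75 on the log2 scale and Xist was lower by -3.68, none past the adjusted threshold. Xist averaged 9395 ± 3370 in controls and 2900 ± 3850 in the other group (SD, n = 4 each), with 47.2 on its lowest array. Mean signals in controls and transgenics were 558.0 and 1054 for Eif2s3y, 305.4 and 572.6 for Uty, and 394.4 and 667.5 for Kdm5d. The part of these genes in the Hox differences below was not tested. Of the 7 endothelial markers 5 were lower in the transgenic group (median -0.23 on the log2 scale), with Cdh5, an endothelial cadherin, at -0.605 (limma unadjusted p = 0.00168) and the summed signal between 1638 and 2211 in controls and between 1253 and 1987 in transgenics. All 3 tested erythroid markers were lower too (median -0.285), with summed signals from 6481 to 13740 and from 5390 to 10700. The 8 immediate early genes of tissue dissociation were all higher (median 0.071), with Dusp1 at 0.169 (limma unadjusted p = 0.039). None of these passed the adjusted threshold, and their part was not tested either.

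Hoxd4 was represented only by probe sets shared with Hoxd3, a neighbouring gene of the same cluster. Whether the transgene holds the probed sequence is not known from the sources used here, so these signals are a limited check of the labels. Signals of the brighter one (1450209_at) were 27.3, 42.6, 4.1 and 256.3 in the control arrays of litters 1 to 4 against 94.1, 415.0, 172.3 and 13 in the arrays labelled transgenic, in the same litter order. The groups overlapped: litters 1, 2 and 3 were higher in the transgenic array, and litter 4 ran against its label. Whether the samples of litter 4 were exchanged was not tested. The ratio of the mean signals was 2.1, and the log2 difference 0.87 (95% interval -0.61 to 2.36, from limma with no filter). The exact permutation test gave p = 0.40, two-sided, the smallest possible being 0.0286. Exchanging labels only within litters gave an exact p of 0.625, where 0.125 is the smallest that 4 litters allow.
Without litter 4 the log2 difference was 2.06 (exact permutation p = 0.10, the smallest that 3 against 3 arrays allow). Litter 4 was the only litter in which the brighter probe set fell, so that value is not a separate test of the labels. Without litter 2 the difference was 0.30 and without litter 3 it was 0.33. The other shared probe set (1421537_at) stayed between 8.92 and 48.0 on all arrays. The probe set of Hoxd3 alone had signals of 35.1, 23.8, 75.9 and 41.6 in controls and 20.7, 12.1, 43.2 and 51.7 in transgenics, and was higher in the transgenic array only in litter 4. The labels define the groups below. Litter 4 ran against its label in the brighter shared probe set, which lay under the brightness filter. The differences of the named members are therefore also given without that litter.

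**Figure D1:**
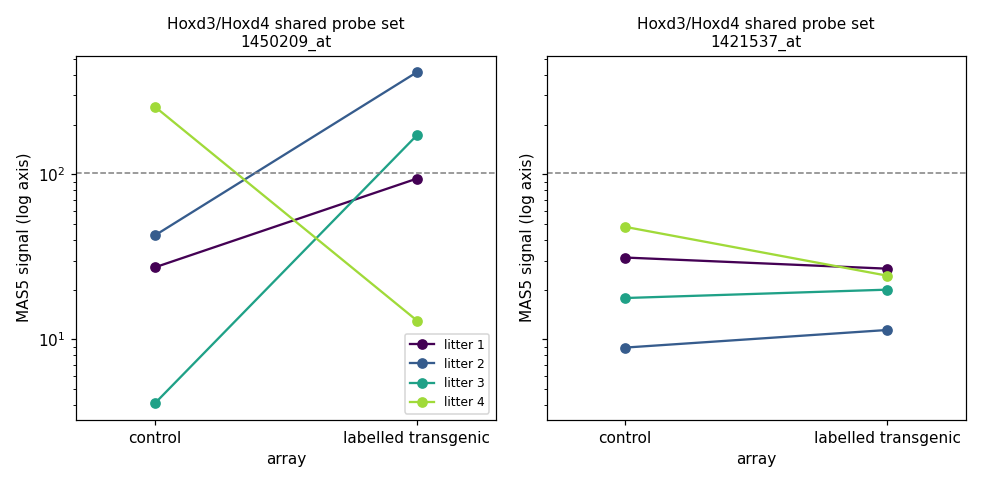
MAS5 signal (log axis) of both probe sets shared by Hoxd3 and Hoxd4 in the control and the transgenic array of each litter, joined by a line per litter, with the signal needed for the test as a dashed line. For the brighter probe set the lines of litters 1, 2 and 3 rise and that of litter 4 falls from 256.3 to 13, while the other probe set stays at or under 48.0 on every array.

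Signal above the filter was found for Hox genes of groups 2 to 9 and for none of groups 10 to 13. A probe set was tested where its mean log2 value over all 8 arrays lay above the median of all probe sets, which is a signal of about 102.2. By this rule 23 of the 51 Hox probe sets were tested (45.1%), for 15 of 35 genes, against 50% of all probe sets. Of the genes in groups 1 to 4, 7 of 11 had a tested probe set, in groups 5 to 9, 8 of 14, and in groups 10 to 13, 0 of 10. How bright a probe set is depends on its probes as well as on the transcript, so signals of different genes are given side by side with no order of RNA amounts. The members nearest the filter were Hoxa4, Hoxb3 (1427605_at) and Hoxd8 (1433638_s_at) just inside, with mean signals of 111, 114.1 and 119.1, and Hoxb4 (1451761_at), the Hoxd3 and Hoxd4 probe set and Hoxc9 just outside, with 83.13, 128.1 and 97.73. The shared probe set lay outside in spite of a higher mean signal, since the filter used the mean of log values and its signals were spread widely.

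**Figure D2:**
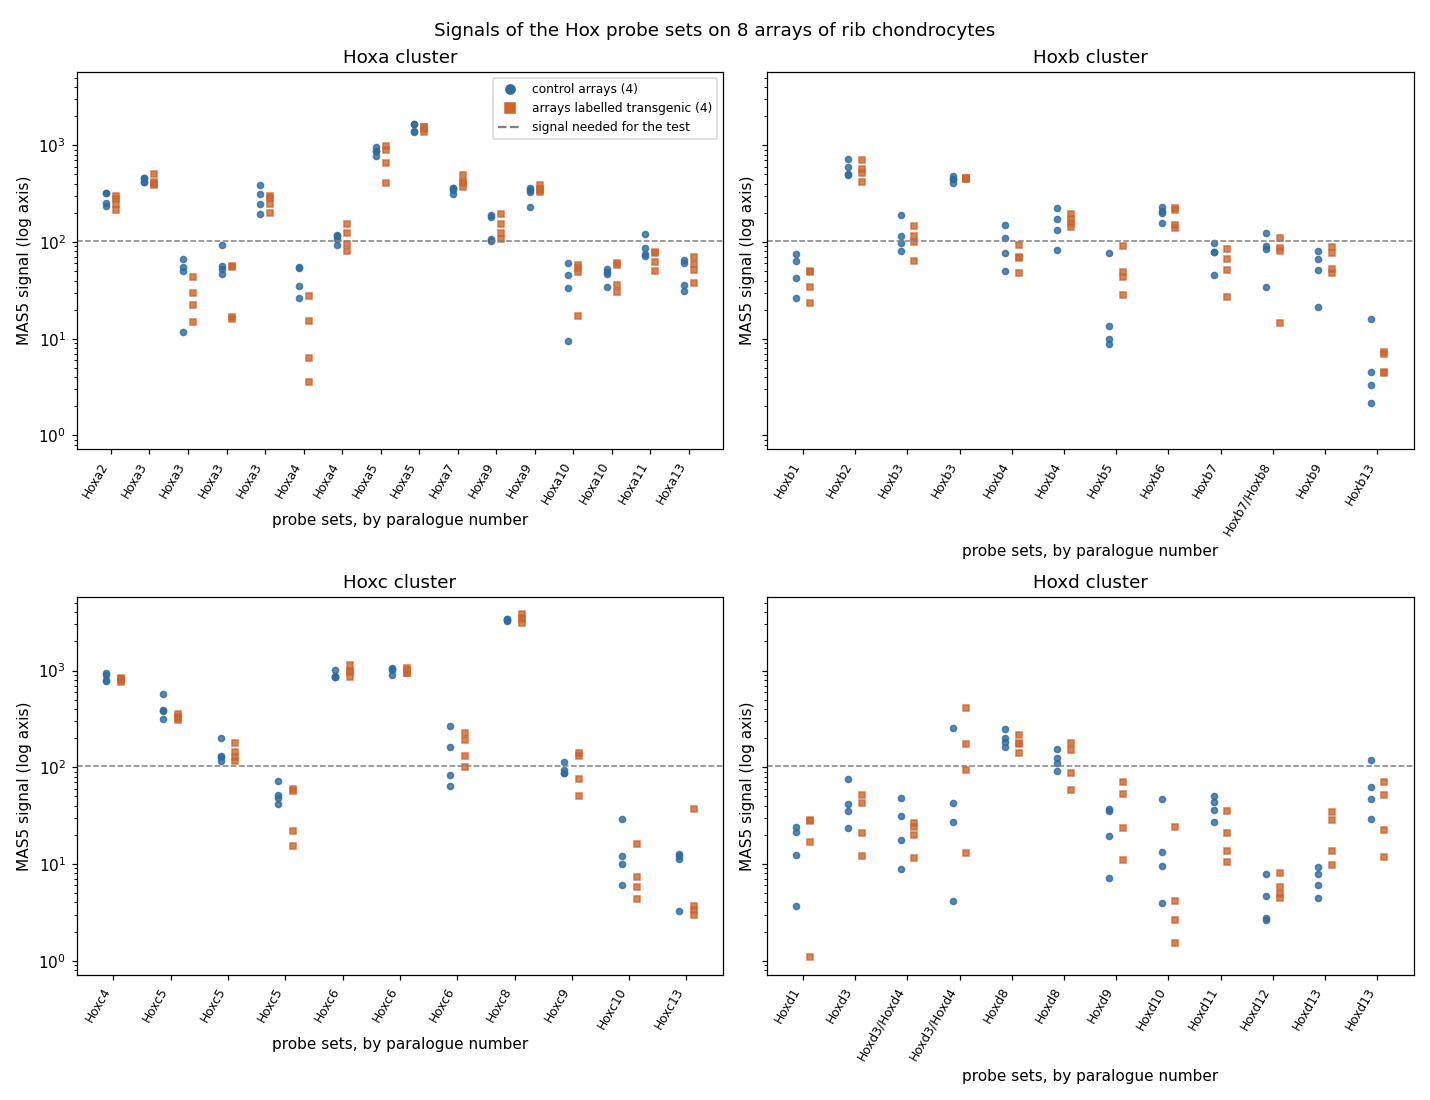
MAS5 signal (log axis) of the 51 Hox probe sets, by cluster and paralogue number, on the 4 control arrays (circles) and the 4 arrays labelled transgenic (squares), with the signal needed for the test as a dashed line. The 23 tested probe sets, all of groups 2 to 9, lie around or above the line, with Hoxc8 between 3137.8 and 3822.4. Those of groups 10 to 13 have mean signals of 77.89 or less, with single arrays of Hoxa11 (121.6) and Hoxd13 (119.1) above the line.

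In the Hoxa cluster 6 of 9 genes were tested: Hoxa2, Hoxa3, Hoxa4, Hoxa5, Hoxa7 and Hoxa9. Hoxa5, which shapes the last neck and first thoracic vertebrae in mice, gave 1644.0, 1660.1, 1422.9 and 1374.4 in the controls of litters 1 to 4 and 1558.4, 1366.1, 1546.9 and 1467.3 in the transgenic ones (1448926_at). The groups overlapped, the coefficient of variation over the 8 arrays was 7.64%, and the genotypes differed by -0.035 in log2 (95% interval -0.22 to 0.15). Hoxa3, a gene of neck and pharyngeal arch patterning, gave 462.3, 414.0, 458.4 and 417.5 in controls and 415.4, 511.0, 390.2 and 399.3 in transgenics (1427433_s_at), again with overlap. Hoxa2, which specifies the second pharyngeal arch, averaged 282.9 ± 44.1 in controls against 259.0 ± 36.6 in transgenics (SD, n = 4 each). Hoxa9, a gene of the lower thorax, gave 318.9 ± 60.4 and 352.8 ± 26.7 (SD, n = 4 each; 1455626_at), and it too overlapped. Hoxa4, the Hoxa paralogue of Hoxd4, lay just above the filter with 108.5 ± 11.5 and 113.4 ± 32 (SD, n = 4 each).

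In the Hoxb cluster the tested genes were Hoxb2, Hoxb3, Hoxb4 and Hoxb6, 4 of 10. Hoxb2, best known from the hindbrain, had signals of 596.8, 492.8, 500.1 and 717.1 in controls and 419.2, 514.5, 562.7 and 708.7 in transgenics. Both arrays of litter 4 were its highest, and the groups overlapped. Hoxb3 had 447.7, 443.4, 408.0 and 486.3 in controls and 443.7, 445.2, 455.7 and 461.8 in transgenics (1456229_at), the smallest coefficient of variation of the 51 Hox probe sets, 4.87%. Hoxb6, of the paralogue group that can drive rib formation in mice, had 228.5, 200.3, 155.8 and 207.5 in controls and 140.5, 151.1, 215.6 and 225.3 in transgenics. Hoxb4, the Hoxb paralogue of Hoxd4, is described below with the largest fold changes. Hoxb1, Hoxb5, Hoxb7, Hoxb8, Hoxb9 and Hoxb13 had no tested probe set. Among them Hoxb7, Hoxb9 and the probe set shared by Hoxb7 and Hoxb8 had mean signals of 66.24, 60.6 and 78.53, and Hoxb13 one of 6.16.

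In the Hoxc cluster 4 of 7 genes were tested, Hoxc4, Hoxc5, Hoxc6 and Hoxc8. Hoxc8, whose loss in mice turns the first lumbar vertebra into a rib-bearing one, had signals of 3382.7, 3345.4, 3251.1 and 3426.0 in controls and 3822.4, 3507.5, 3438.4 and 3137.8 in transgenics. The transgenic array was the higher one in litters 1, 2 and 3 and the lower one in litter 4, and the log2 fold change was 0.05 (95% interval -0.10 to 0.20). It was 0.11 without litter 4 and 0.00 without the transgenic array of litter 1, its highest. Hoxc6, a thoracic gene, had 1009.1, 1037.8, 1051.6 and 890.9 in controls and 941.0, 1004.0, 947.9 and 1064.0 in transgenics (1427362_x_at). Hoxc4, the Hoxc paralogue of Hoxd4, had 799.5, 772.6, 891.8 and 953.2 in controls and 760.1, 840.2, 797.9 and 812.4 in transgenics. The transgenic array was the lower one in 3 of 4 litters, and the groups overlapped (log2 fold change -0.08, 95% interval -0.28 to 0.12). Hoxc9 lay just under the filter, and Hoxc10 and Hoxc13 had mean signals of 11.36 and 10.83.

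The Hoxd cluster, to which Hoxd4 belongs, had 1 tested gene of 9. Hoxd8 had signals of 163.1, 199.7, 183.1 and 246.1 in controls and 140.0, 174.9, 218.2 and 177.5 in transgenics (1431099_at). It was lower in the transgenic array in 3 of 4 litters and higher in litter 3. Its neighbours towards the posterior end, Hoxd9, Hoxd10, Hoxd11 and Hoxd12, had mean signals of 31.98, 13.27, 29.56 and 5.129, and Hoxd1, at the other end, 17.01. Hoxd13, a gene of digits and genital tissue, gave 46.8, 28.9, 119.1 and 62.8 in controls and 22.3, 11.9, 71.0 and 51.4 in transgenics (1440626_at), with litter 3 highest in both groups and above its array's median signal on 1 array.

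The 12 probe sets of groups 10 to 13 had mean signals between 5.129 and 77.89. Among them Hoxa11, which patterns the sacrum and the forearm, was the brightest, though untested. Its signals were 88.83 ± 22.6 in controls against 66.94 ± 13.9 in transgenics (SD, n = 4 each). Hoxa11, Hoxd11 and Hoxd13 (1440626_at) were lower in the transgenic array of every litter, while Hoxd13 (1422239_at) was higher in every litter. Of all tested probe sets 13.4% ran the same way in every litter, and the share among untested ones was not computed. Of the group that suppresses ribs, Hoxa10 averaged 40.86 and 45.94 by its 2 probe sets, Hoxc10 11.36 and Hoxd10 13.27. Of these 12 probe sets, those of Hoxa11 and Hoxd13 (1440626_at) exceeded the array's median signal on 1 array each and the others on none, which does not show that the transcripts were absent, and no detection calls were used here. Over all 51 probe sets, 17 lay above the array's median signal on all 8 arrays, 22 on none and 12 on some.

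Probe sets of the same gene differed widely in brightness. Hoxa3 had 4, with mean signals from 36.64 to 433.5, an 11.8-fold range, and Hoxc5 had 3, from 45.59 to 372.5, an 8.17-fold range. Hoxc6 spanned 152.7 to 993.3 over 3 probe sets. A dim probe set alone therefore says little about the gene, and genes such as Hoxb5, Hoxb9 and Hoxd9 were seen through 1 only. Of 7 genes with more than 1 tested probe set, the fold changes of 5 had the same sign in all of them (Hoxa3, Hoxa5, Hoxa9, Hoxc5 and Hoxd8), while those of Hoxb3 and Hoxc6 did not.

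No Hox probe set passed an adjusted p of 0.05 between the genotype labels in limma. The count was 0 of 23, against 0% of all 22518 tested, and 1 Hox probe set (Hoxa7) had an unadjusted p under 0.05, 4.35% of the members against 3.29% of all. Log2 fold changes ran from -0.30 to 0.26, with 9 probe sets higher and 14 lower and a median of -0.03, while 51.2% of all tested probe sets were higher, with a median of 0.003. All 23 intervals lay within a 2-fold change in either direction and 17 within a 1.5-fold change (73.9%, against 86.1% of all tested). The 6 that reached further belonged to Hoxa5 (1443803_x_at), Hoxb3 (1427605_at), Hoxb4, Hoxc5 (1439885_at), Hoxc6 (1427454_at) and Hoxd8 (1433638_s_at). Residual spread was 0.24 on the log2 scale for the median Hox probe set and 0.17 for the median tested one. The fold changes are of signal with 32 added, which makes those of dim probe sets smaller.

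**Figure D3:**
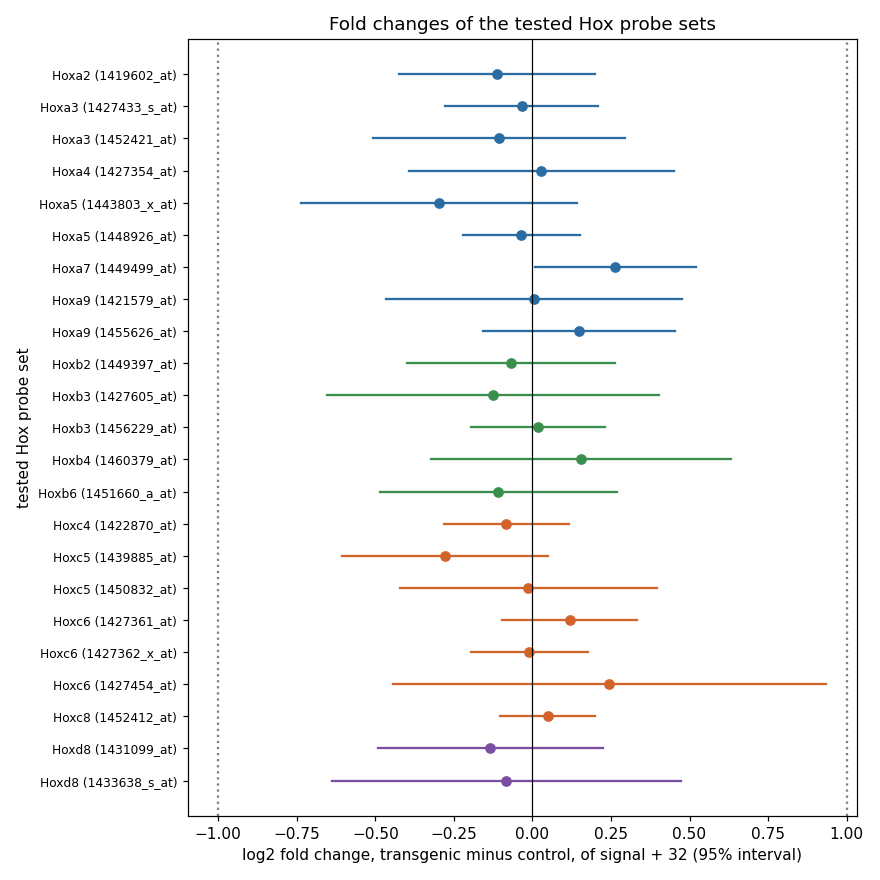
Log2 fold change (transgenic minus control, of signal + 32) with its 95% interval for each of the 23 tested Hox probe sets, coloured by cluster, with dotted lines at a 2-fold change. All intervals lie between the dotted lines, and that of Hoxa7 (0.01 to 0.52) is the only one that leaves out 0.

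Both directions occurred in 3 of the 4 clusters. In the Hoxa cluster 4 tested probe sets were higher and 5 lower, in Hoxb 2 and 3, in Hoxc 3 and 4, and in Hoxd 0 and 2. Groups 1 to 4, to which Hoxd4 belongs, gave 3 higher and 6 lower with a median of -0.07, and groups 5 to 9 gave 6 higher and 8 lower with a median of -0.01. These are counts without a test. Without litter 4 the median of all tested Hox probe sets was -0.015. Among the named members not taken up further below, the log2 fold changes were then -0.03 for Hoxa3, -0.08 for Hoxa5 (1448926_at), -0.09 for Hoxb2, 0.05 for Hoxb3, -0.18 for Hoxb6, -0.04 for Hoxc4 and -0.10 for Hoxc6 (1427362_x_at). The group 4 paralogues of Hoxd4 lay at 0.03 (Hoxa4, 95% interval -0.39 to 0.45), 0.155 (Hoxb4, -0.32 to 0.63) and -0.08 (Hoxc4).

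The largest difference towards higher signal belonged to Hoxa7, a thoracic patterning gene. It gave 360.2, 311.2, 364.4 and 347.8 in the controls of litters 1 to 4 and 366.9, 406.3, 498.5 and 422.5 in the transgenic arrays. The groups did not overlap, although the lowest transgenic value lay only just above the highest control, and the transgenic array was the higher one in 4 of 4 litters. Of all tested probe sets 2.26% had groups that did not overlap and 13.4% ran the same way in every litter, against 1 and 2 of the 23 members (4.35% and 8.7%). By direction, 1.18% of all tested probe sets were higher and 1.08% lower with no overlap, 6.86% were higher in every litter and 6.59% lower, and 1.59% were higher and 1.7% lower at an unadjusted p under 0.05. The members had 1 higher (Hoxa7) in each kind, and 1 lower (Hoxc5) in the direction over litters alone. The ratio of means was 1.22 and the log2 fold change 0.26 (95% interval 0.01 to 0.52; limma unadjusted p = 0.0432, adjusted p = 1.0). With the litter as a block the unadjusted p was 0.0394, and 2 members (Hoxa7 and Hoxc5), 8.7%, lay under 0.05, against 5.52% of all. Without litter 4, against its label in 1 dim shared probe set, the log2 fold change was 0.27 (limma unadjusted p = 0.0983). Without only the transgenic array of litter 4 it was 0.26 (limma unadjusted p = 0.0706). No member had an unadjusted p under 0.05 in either case, against 548 and 672 of all 22518 tested probe sets. The unadjusted p of Hoxa7 was also above 0.05 without litter 2 (0.126) or litter 3 (0.14), and without the control array of litter 2 (0.113) or 4 (0.0656) or the transgenic array of litter 2 (0.0553) or 3 (0.148).

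Hoxc5, a gene of the neck to thorax transition, ran lower in every litter. Signals of 1439885_at were 380.0, 315.1, 392.1 and 574.4 in controls and 321.2, 307.3, 333.3 and 356.3 in transgenics. The groups overlapped, and the control array of litter 4 stood well above the rest. The log2 fold change of -0.28 (95% interval -0.61 to 0.05; limma unadjusted p = 0.0907, and 0.047 with the litter as a block) became -0.12 without the control array of litter 4 and -0.16 without the litter. In the other direction it became -0.39 (limma unadjusted p = 0.0224) without the control array of litter 2 and -0.36 (limma unadjusted p = 0.0497) without that litter. A dimmer tested probe set of Hoxc5 (1450832_at) lay at -0.01 (95% interval -0.42 to 0.40).

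The other members at the ends of the range overlapped between the groups. For Hoxa5 a second probe set (1443803_x_at), with a suffix that marks possible binding to other transcripts, had signals of 768.9, 873.9, 880.6 and 957.2 in controls and 901.7, 651.8, 994.2 and 404.7 in transgenics. Its fold change of -0.30 went to -0.05 without the transgenic array of litter 4, its lowest, to -0.01 without the litter, and to -0.46 (limma unadjusted p = 0.036) without the transgenic array of litter 3, its highest. Hoxc6 by its dimmest probe set (1427454_at) gave 160.8, 82.3, 63.4 and 267.2 in controls and 190.5, 100.8, 130.5 and 226.2 in transgenics. Litters 1 and 4 were the higher ones in both groups, and the value of 0.245 (95% interval -0.445 to 0.94) moved between 0.00 and 0.55 as arrays or litters were left out, and was 0.40 without litter 4. Hoxb4 gave 133.5, 172.0, 82.7 and 226.4 in controls and 158.6, 173.7, 141.7 and 193.6 in transgenics (1460379_at), and its value turned to -0.06 without the control array of litter 3 and was 0.27 without litter 4. Hoxd8 by 1431099_at was at -0.13 (95% interval -0.49 to 0.22) ranged from -0.25 to -0.04 in the same way, and was -0.04 without litter 4.

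**Figure D4:**
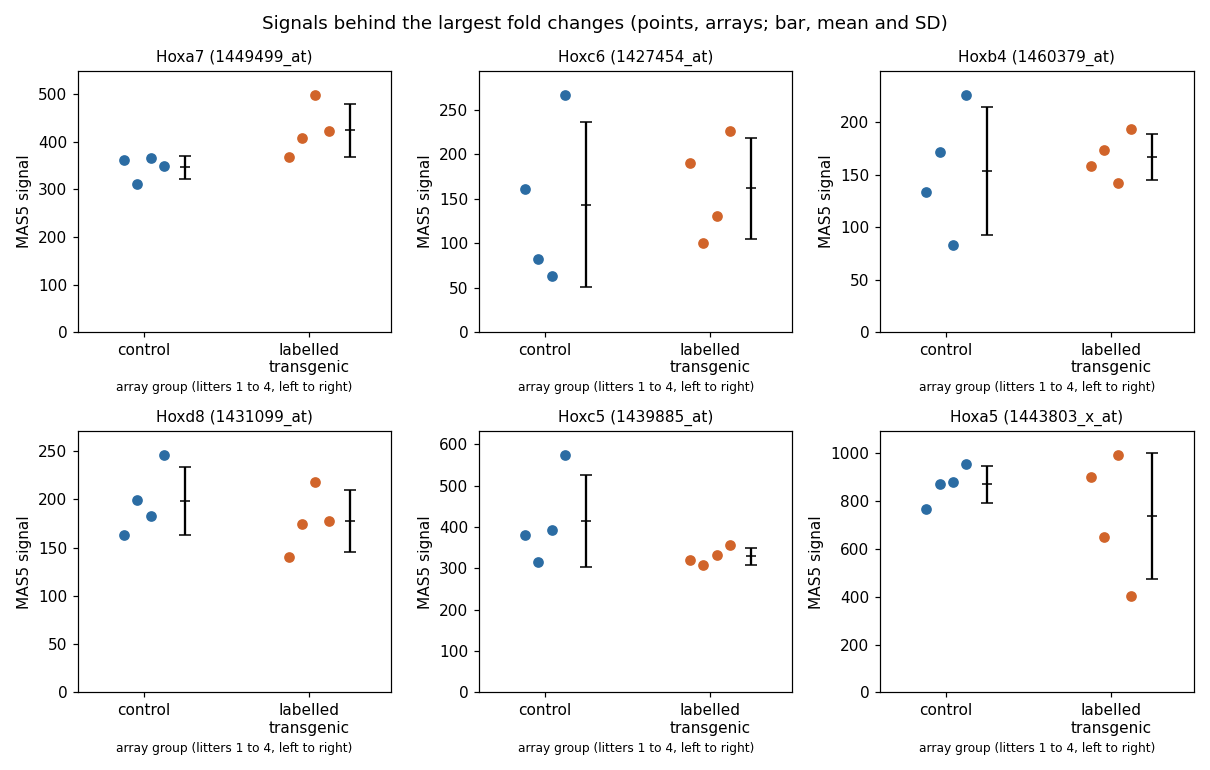
MAS5 signal of the 6 tested Hox probe sets with the largest fold changes in either direction, with a point for each array (litters 1 to 4 from left to right) and the mean and SD of 4 arrays beside them. The groups of Hoxa7 do not overlap, the control array of litter 4 (574.4) stands apart for Hoxc5, and the transgenic array of litter 4 (404.7) is the lowest for Hoxa5.

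Within litters the members pointed in mixed directions. Comparing the transgenic with the control array of the same litter, 8, 11, 18 and 8 of the 23 tested Hox probe sets were higher in litters 1, 2, 3 and 4. The median log2 differences were -0.08, -0.03, 0.16 and -0.07, while those of all tested probe sets lay between -0.004 and 0.007. Most members were higher in litter 3 and most lower in litters 1 and 4, while litter 2 was nearly even, and differences between litters were not tested. Of the 23 Hox probe sets, 10, 10, 8 and 16 lay above their own mean over the 8 arrays in the control arrays of litters 1 to 4, and 8, 12, 15 and 11 in the transgenic arrays.

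**Figure D5:**
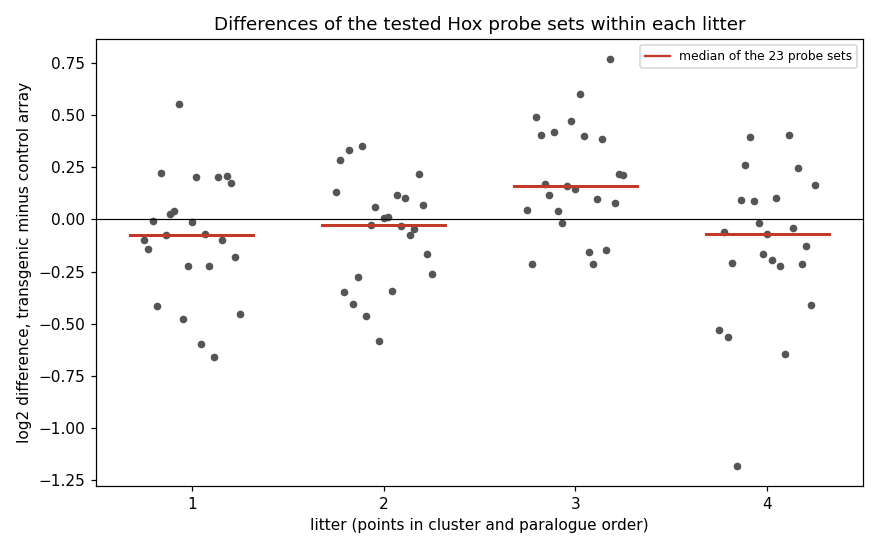
Log2 difference between the transgenic and the control array of each litter for the 23 tested Hox probe sets (points, in cluster and paralogue order) with their median (bar). The medians are -0.08, -0.03, 0.16 and -0.07 for litters 1 to 4, and the points of every litter lie on both sides of 0.

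The 28 Hox probe sets under the filter had mean signals between 5.129 and 128.1, and their differences are measured near background. With no filter, 3 of 51 Hox probe sets (5.88%) had an unadjusted p under 0.05 in limma, against 4.09% of all 45037, and the adjusted count was 0. Besides Hoxa7 these were a probe set of Hoxa4 and one of Hoxd13, named here after their values were seen. The Hoxa4 probe set (1420226_x_at) had signals of 54.9, 26.5, 54.3 and 35.3 in controls and 27.7, 3.59, 6.25 and 15.3 in transgenics, a log2 fold change of -0.735. It was lower in every litter, with a narrow overlap of the groups, but the tested probe set of Hoxa4 was at 0.03. The Hoxd13 probe set (1422239_at) had 6.12, 7.85, 4.41 and 9.21 in controls and 9.69, 13.5, 34.1 and 28.7 in transgenics, a log2 fold change of 0.435. Its groups did not overlap, yet all its values were far under the array medians, and the other Hoxd13 probe set, at -0.44, was lower in every litter. Of all tested probe sets 2.26% had groups that did not overlap and 13.4% ran the same way in every litter. The shares among probe sets under the filter were not computed.

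None of the genes tested that act with or on the Hox clusters, or lie near them, passed the adjusted threshold. Nor did any of the 22518 tested probe sets, of which 51.2% were higher and 3.29% had a limma unadjusted p under 0.05. The TALE homeodomain cofactors, which bind DNA together with Hox proteins, had 7 of 8 members on the array tested, 6 higher and 1 lower, with a median of 0.05 and 0 past the adjusted threshold; Pbx3 was at 0.05 and Meis1 at 0.07. Of Polycomb and trithorax genes, which keep Hox clusters silent or active, 21 of 22 were tested, 12 higher and 9 lower with a median of 0.03 and none with an unadjusted p under 0.05. Kmt2d, a histone H3 methyltransferase, lay at 0.15 and Pcgf2, a Polycomb subunit, at 0.27. Of upstream axial and retinoid genes 9 of 16 were tested, 4 higher and 5 lower. The Cdx1, Cdx2, Cdx4 and Gdf11 regulators of early axial patterning were too dim. Crabp1, a retinoic acid binding protein, was lowest with a mean signal of 278.5 in controls and 202.4 in transgenics (log2 fold change -0.41, limma unadjusted p = 0.0237, adjusted threshold not passed), and Aldh1a2, which makes retinoic acid, lay at -0.15. Genes that flank the clusters or lie inside them had 11 of 17 members tested, 5 higher and 6 lower with a median of -0.02. Among them were Mtx2 beside the Hoxd cluster (-0.12) and Cbx1 near the Hoxb cluster (0.13), while Evx1 and Evx2, homeobox genes at the posterior ends of the Hoxa and Hoxd clusters, were too dim, with mean signals of 56.08 and 63.32 in controls and 48.72 and 147.2 in transgenics.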

How the data were processed

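RNA of 4 control and 4 transgenic samples was hybridised to 1 array each. The authors deposited 1 linear intensity per probe set and array, and the submitters' processing notes name MAS5. The sources used here do not give its version, and no detection calls were used. From the values, every array was scaled to a mean of 500 without the top and bottom 2%. MAS5 subtracts mismatch signal, which leaves dim probe sets noisy.

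From the intensities, 64 manufacturer's control probe sets were left out and the remaining 45037 put on a log2 scale after adding 32, the rounded median over arrays of each array's 25th percentile. Probe sets whose mean lay above the median, 22518, were tested, two-sided, in limma 3.58.1 under R 4.3.3 (statmod 1.5.0 for the random block) by lmFit, then eBayes allowing the variance to follow intensity, with Benjamini-Hochberg adjustment over all tested. The 95% intervals are those of limma. Shared Hoxd3 and Hoxd4 probe sets were tested by exact permutation over 70 assignments. The precision is set by 4 arrays per group. The fit was tested on simulated data with known changes, drawn as independent normal values with each probe set's residual spread. At the adjusted threshold it recovered 9% of 1.25-fold, 46% of 1.5-fold and 85.4% of 2-fold changes. Of the calls 4.69% were false. Small changes could thus be missed. Each of the 10 simulated sets held 200 changed probe sets among 22518, while no probe set of the real data passed that threshold. Median residual spread was 0.24 for Hox probe sets and 0.17 for all tested, so the recovered shares are not those of Hox probe sets. Python 3.11.15 and matplotlib 3.10.9 served for the plots.

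Gene names came from GEO's platform annotation, with symbols looked up by gene identifier in a RefSeq table of GRCm38.p6, which changed 0. Of the probe sets 34945 had 1 symbol, 932 several and 9160 none, and only the shared Hox ones among those with several were used. For the related and marker lists the brightest probe set of a gene was used. Members, lists and tests were chosen with earlier results of these data known. Genes named with all values were those of Hoxd4, the 3 with the brightest probe sets in each cluster, and the tested members with an unadjusted p under 0.05 or the 3 highest and 3 lowest fold changes. For each related list the 2 genes with the smallest p were to be named, and others were added for their role.

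The numbers in the labels are those of litters, which pairs same-numbered arrays. Deviations from the group means over tested probe sets correlated by 0.28, 0.17, 0.04 and 0.15 in litters 1, 2, 3 and 4 (mean 0.16, against -0.05 between litters). The control array of litter 3 correlated best with a transgenic array of another litter, those of litters 1, 2 and 4 with their own. The labels name no test, so the chosen fit had no block and the litter block was an alternative. Other alternatives were the added constant, the filter, quantile normalization, a random litter block, no intensity trend, leaving out each array or litter, and leaving out probe sets that can bind several transcripts.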

Additional observations from a re-analysis of the deposited data

How the results depend on the processing

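No Hox probe set passed an adjusted p of 0.05 under any of the 21 alternatives. Of all 22518 tested probe sets, 2 passed in limma without litter 4 and 1 without only its transgenic array. Under the other alternatives no probe set passed at all. The median log2 fold change of the tested Hox probe sets, -0.034, lay between -0.035 and -0.014 where all arrays were kept. The number of Hox probe sets with an unadjusted p under 0.05 was 3 with no filter (51 tested, against 1844 of all 45037). It was 0 with the filter at the 75th percentile (7 tested, against 304 of all 11259) and 2 with the litter as a replicate block (against 1242 of all 22518). It ran from 0 to 1 as arrays or litters were left out, against 548 to 846 of all 22518 tested. It was 0 without control array 4, transgenic array 2 or 4, or litter 3 or 4. Where it was 1, the member was Hoxc5 rather than Hoxa7 without control array 2 or litter 2, and Hoxa5 (1443803_x_at) without transgenic array 3. More probe sets were tested with no filter and fewer with the stricter one, and for the block the cause was not tested. Leaving out arrays or litters moved Hoxc8 between 0.00 and 0.11. That median ran from -0.08 to 0.026 and the Hoxd3 and Hoxd4 difference from 0.30 to 2.06 as arrays or litters were left out, and the latter was 1.06 and 0.67 with 16 and 64 added. With the litter as a replicate block the pairing left it at 0.87 (exact p = 0.625), and the block changed no adjusted call. The filters, the trend, the random block and the probe set type have no bearing on that exact test and were not run for it.

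Of 283 comparisons of the 14 named tested probe sets with an alternative, 262 kept their direction. The 21 that turned all came from leaving out an array or a litter: Hoxa3 (1427433_s_at) ran from -0.14 to 0.03, Hoxa5 (1448926_at) from -0.09 to 0.04, Hoxb2 from -0.19 to 0.07, Hoxb3 (1456229_at) from -0.03 to 0.06, Hoxb4 from -0.06 to 0.33, Hoxb6 from -0.28 to 0.05 and Hoxc6 (1427362_x_at) from -0.10 to 0.03. None of these was called, and fewer arrays entered each such fit. Dim signal limits what can be said of the 28 untested probe sets, and 4 arrays per group limit the rest.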
